A study of Mus musculus with 16 samples.

Results

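Muscarinic acetylcholine receptors and the cholinesterases, the host genes that receive acetylcholine and that break it down, were followed in bulk RNA of mouse colon and ileum lamina propria. The members were chosen by name, as the muscarinic receptor genes *Chrm1*, *Chrm2*, *Chrm3* and *Chrm4*, the esterase genes *Ache* and *Bche*, and *Colq*, which encodes the collagen tail that anchors acetylcholinesterase. All 7 were found among the 35647 genes of the table. The lamina propria is the tissue layer under the gut epithelium, and its cells had been taken at the step between 40% and 80% Percoll, a density gradient that enriches immune cells. The host mice were of wild-type genotype, had been raised germ-free, and in all 4 groups had then been mono-colonised for 5 weeks with *Bifidobacterium breve*, a gut commensal. The bacterium was either the wild-type strain (WT below) or the Δchat strain, which lacks acetylcholine production. Colon and ileum were taken, which gave the groups colon WT, colon Δchat, ileum WT and ileum Δchat with 4 libraries each, from 4 mice per strain. None of the 4 groups was left germ-free.

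Muscarinic receptors are G protein-coupled receptors. Those encoded by *Chrm1* and *Chrm3* couple to Gq and phospholipase C, and those encoded by *Chrm2* and *Chrm4* couple to Gi and lower cyclic AMP. In the gut wall the products of *Chrm2* and *Chrm3* are best known from smooth muscle, where they mediate contraction, and that of *Chrm3* also from epithelium. Acetylcholinesterase, from *Ache*, splits acetylcholine rapidly at synapses, while butyrylcholinesterase, from *Bche*, splits a wider range of choline esters.

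The libraries held 15.9 M to 23.6 M estimated counts (M, mega), so that 3 counts, the upper limit that a count of 0 allows, were worth 0.127 to 0.188 CPM, the count scaled to library size. Immune genes were abundant, with a mean of 865 CPM for *Ptprc*, the common leukocyte antigen. So were genes of other cells: *Plvap* of endothelium had a mean of 1614 CPM, *Col3a1* of fibroblasts 1502 CPM and *Acta2* of smooth muscle 174 CPM, so the immune cell label covers only some of the RNA. One library stood apart: colon Δchat replicate 3 had a summed level of 4065 CPM over 15 epithelial genes, against 60 to 493 CPM in the other 15 libraries. Most results that rest on it are given with and without it. In bulk RNA of this kind, fewer cells of a type and less RNA per cell cannot be told apart.

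Before the values, the promoters of *Chrm2* and *Bche* are shown, because these were the members that differed between ileum and colon. Each run holds the 300 bases from 250 before to 50 after the gene's start, 5′ to 3′ on the gene's strand, from RefSeq on GRCm38.p6. That is not the build of the counts, and 5 of the 7 members had an entry in the table. Capitals mark the GC box, searched as GGGCGG on both strands. The *Chrm2* run lies at chr6:36387834-36388133 on the plus strand, and the *Bche* run at chr3:73708366-73708665 on the minus strand.
Chrm2: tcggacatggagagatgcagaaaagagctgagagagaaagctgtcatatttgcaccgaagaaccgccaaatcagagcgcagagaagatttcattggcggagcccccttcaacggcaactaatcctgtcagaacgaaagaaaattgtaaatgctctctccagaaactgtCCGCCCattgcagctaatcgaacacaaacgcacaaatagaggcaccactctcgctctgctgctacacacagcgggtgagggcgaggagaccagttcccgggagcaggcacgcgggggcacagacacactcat
Bche: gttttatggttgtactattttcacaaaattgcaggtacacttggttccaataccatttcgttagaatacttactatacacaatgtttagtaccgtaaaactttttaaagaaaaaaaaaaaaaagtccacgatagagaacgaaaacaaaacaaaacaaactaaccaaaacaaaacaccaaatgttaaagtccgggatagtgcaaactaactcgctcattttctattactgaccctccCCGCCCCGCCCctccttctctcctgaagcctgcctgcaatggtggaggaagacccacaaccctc
The *Chrm2* window held 1 GC box, and the *Bche* window 2 that overlap by a base. Of 32851 promoter windows of this length, 35.7% held a GC box. GC content was 52.7% for *Chrm2*, which equals the median of all windows, and 39.3% for *Bche*, below their lower quartile of 45.7%. *Chrm2* had 16 CpG dinucleotides and *Bche* 8, where the median window had 7. The windows of *Ache* and *Chrm4* were richer, with a GC content of 74.0% and 70.7%, 30 CpG each and 4 GC boxes each. That of *Chrm3* held no GC box, at a GC content of 57.3%. A TATAAA match on either strand, found in 13.6% of all windows, was in none of the 5. These matches describe the letters in the windows only.

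Levels of the members differed widely. Per kilobase of merged exons, a scale on which genes can be compared, *Chrm2* had the highest mean over the 16 libraries, 1.98 CPM per kb. *Colq* (0.925) and *Ache* (0.812) followed, then *Chrm3* (0.370), *Bche* (0.260) and *Chrm1* (0.0414 CPM per kb). The annotated model of *Chrm4* holds coding sequence only, so its 0.288 CPM per kb is not comparable with the others. *Chrm1* and *Chrm4* were near the limit of detection, each with at least 1 count in 15 of 16 libraries and with at most 15 and 18 counts. *Chrm5*, the remaining muscarinic receptor gene, had a count in 2 libraries and never more than 1.

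**Figure D1:**
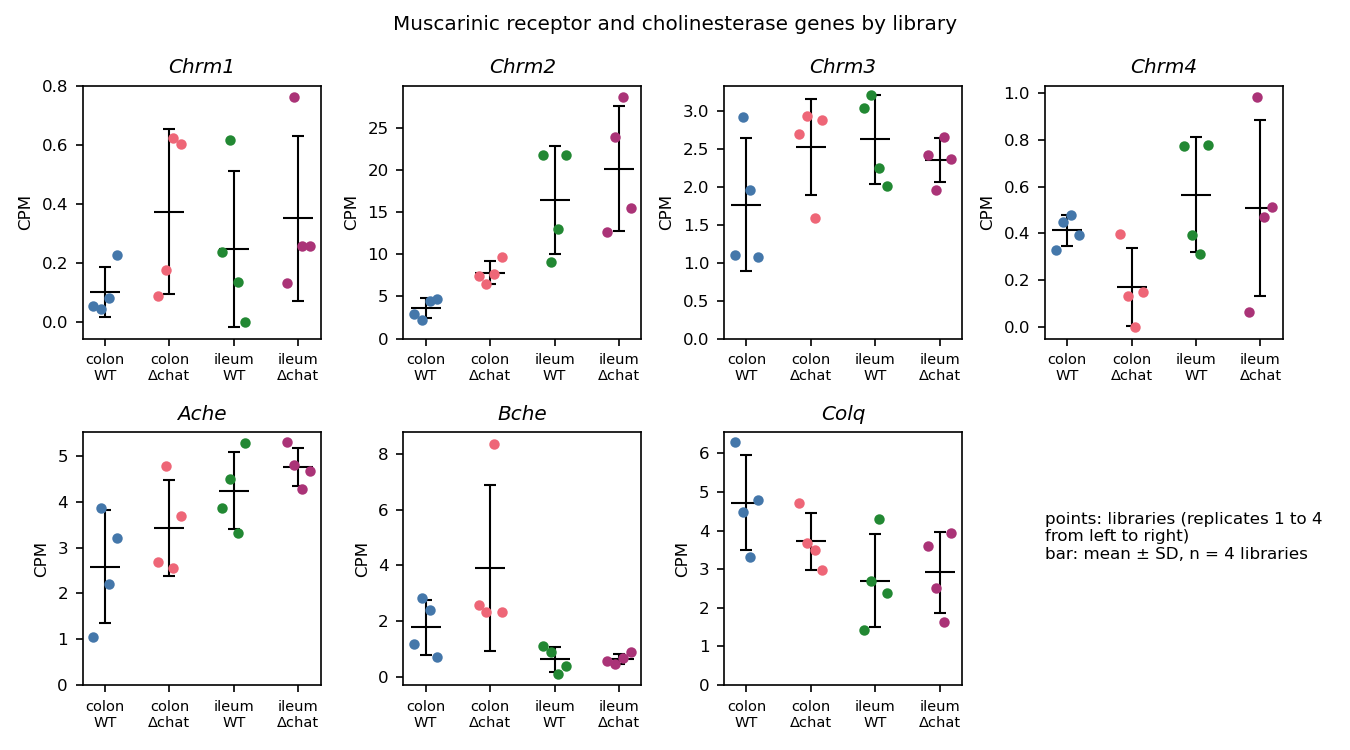
Level of each of the 7 genes in each of the 16 libraries, in CPM on a linear axis that differs between panels. Points are libraries, replicates 1 to 4 from left to right, and bars are the mean ± SD of 4 libraries. *Chrm2* runs from 2.25 to 4.74 CPM in colon WT up to 12.6 to 28.7 CPM in ileum Δchat, and 1 colon Δchat library has 8.35 CPM of *Bche*.

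The question of the strain comparison is whether gut cells of mice whose only bacterium cannot make acetylcholine differ in the genes that sense and clear it. In colon, *Chrm2* (ENSMUSG00000045613) had 2.90, 2.25, 4.47 and 4.74 CPM in the WT libraries, replicates 1 to 4, and 7.37, 6.47, 7.68 and 9.73 CPM in the Δchat libraries. Every Δchat library was above every WT library. The means were 3.59 ± 1.21 and 7.81 ± 1.38 CPM (SD, n = 4 each), 2.19-fold apart. The log2 fold change was 1.13 ± 0.27 (SE; 95% interval 0.53 to 1.74), and edgeR's quasi-likelihood test gave an adjusted p of 0.260 over 14660 genes (unadjusted p = 0.00225), so *Chrm2* was not called. Of all genes tested in colon, 7.31% had groups that did not overlap and 0.00682%, a single gene, passed an adjusted p of 0.05. DESeq2, run as an alternative, called *Chrm2* (log2 fold change 1.12, adjusted p = 0.00831), along with 313 genes in all. Over the other alternatives the adjusted p of *Chrm2* ran from 0.129 with a replicate block to 0.513 with an epithelial covariate. That block pairs WT and Δchat libraries by replicate number, though they come from different mice. The log2 fold change over all alternatives ran from 0.96 to 1.29.

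Lists of other cell types also differed by strain in colon at unadjusted p, though edgeR called no gene of any of the 18. The median log2 fold change of 15 epithelial genes was 3.202, with 14 at an unadjusted p under 0.05, and 1.02 with 6 such genes without colon Δchat replicate 3. That of 10 plasma cell genes was -0.98, with 9 such genes and 7 called by DESeq2, and a summed level of 33809 to 66477 CPM in WT and 17808 to 24533 CPM in Δchat. The 12 macrophage genes had a median of 0.76, with 11 such genes and 3 called by DESeq2 (*Csf1r*, *Mertk* and *Mrc1*), and sums of 363 to 510 and 475 to 957 CPM. Of 10 glial genes 5 were tested, at a median of -2.11, with 4 such genes and 2 called by DESeq2 (*Cdh19* and *Sox10*). Without colon Δchat replicate 3 the plasma cell and macrophage medians were -1.08 and 0.83. The glial median was then -1.67 over 8 genes tested, 5 of them at an unadjusted p under 0.05. Among vessel and muscle genes, 3 endothelial, 3 pericyte and no smooth muscle genes had an unadjusted p under 0.05, and DESeq2 called none of them. The median log2 fold change of the 12 endothelial genes was 0.42, with 9 higher and 3 lower. Their summed level was 2397 to 3785 CPM in WT and 3059 to 5143 CPM in Δchat. The 7 pericyte genes had a median of 0.42, and the 16 smooth muscle genes one of 0.13 with sums of 684 to 1324 and 888 to 1650 CPM. No endothelial, pericyte or smooth muscle gene was at 0 in any library. With an endothelial covariate, chosen after seeing the data, the log2 fold change of *Chrm2* was 1.02 (adjusted p = 0.230), and without colon Δchat replicate 3 it was 1.13 (adjusted p = 0.264). Beyond the covariates, the part of these cells was not tested.

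The other receptors did not separate the strains in colon. *Chrm3* (ENSMUSG00000046159) had 1.09, 2.92, 1.96 and 1.07 CPM in WT and 2.69, 2.92, 1.59 and 2.87 CPM in Δchat. The ranges overlapped, with a log2 fold change of 0.52 ± 0.37 (edgeR adjusted p = 0.560). *Chrm1* (ENSMUSG00000032773) and *Chrm4* (ENSMUSG00000040495) were too low in colon to be kept for the test. *Chrm1* had 1 to 4 counts per WT library and 2 to 15 per Δchat library, and *Chrm4* 6 to 12 and 0 to 9. Of these 8 libraries, 4 were at or under 3 counts for *Chrm1* and 3 for *Chrm4*, and no statement on a difference is made for either.

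Among the esterase genes in colon, *Bche* (ENSMUSG00000027792) had 1.20, 2.83, 2.40 and 0.733 CPM in WT and 2.60, 2.35, 8.35 and 2.32 CPM in Δchat. The third Δchat library, the one rich in epithelial RNA, was far above the rest, and the other 3 lay within the WT range. The log2 fold change was 1.14 ± 0.57 (edgeR adjusted p = 0.417), and without that library it was 0.42 (adjusted p = 0.734). With an epithelial covariate it was -0.16 (adjusted p = 0.935), and over all alternatives the adjusted p ran from 0.322 to 0.935. *Ache* (ENSMUSG00000023328) had 1.04, 3.86, 2.20 and 3.22 CPM in WT and 2.69, 4.79, 2.55 and 3.68 CPM in Δchat, which overlapped (0.42 ± 0.39, adjusted p = 0.662). *Colq* (ENSMUSG00000057606) had 6.30, 4.49, 3.31 and 4.80 CPM in WT and 4.72, 3.68, 3.51 and 2.97 CPM in Δchat. Its groups overlapped as well, at a log2 fold change of -0.33 ± 0.24 (adjusted p = 0.561). In all, edgeR called none of the 5 members tested in colon. Of these, 1 had an unadjusted p under 0.05, as had 1951 of all genes, and DESeq2 called that 1, *Chrm2*. The median log2 fold change was 0.52 over the 5 members and 0.01 over all genes.

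In ileum the strains overlapped for every member. *Chrm2* had 21.8, 9.04, 13.1 and 21.8 CPM with WT and 12.6, 23.97, 28.7 and 15.5 CPM with Δchat. The means were 16.4 ± 6.40 and 20.2 ± 7.43 CPM (SD, n = 4 each), a log2 fold change of 0.28 ± 0.35 (95% interval -0.52 to 1.08; edgeR adjusted p = 0.799). The colon value, 1.13 (95% interval 0.53 to 1.74), lay above that interval, though the intervals of the tissues overlapped. For the other 5 members tested the log2 fold changes lay between -0.18 (*Chrm3*) and 0.14 (*Ache*), with adjusted p values from 0.802 to 0.976. Their intervals were of unequal width: that of *Ache* ran from -0.26 to 0.55 and that of *Bche*, at 3 to 21 counts a library, from -1.25 to 1.39. edgeR called none of the 6 members, none had an unadjusted p under 0.05, and DESeq2 called none. Of all genes in ileum, 0.0207% were called, 7.19% had groups that did not overlap and 1581 had an unadjusted p under 0.05. The median log2 fold change was 0.07 over the members and 0.01 over all genes.

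Whether the strain effect differed between tissues was tested in a fit over all 16 libraries. No member was called by edgeR or by DESeq2, where edgeR called 0.0592% of all genes, and no member but 1174 genes in all had an unadjusted p under 0.05. For *Chrm2* the strain effect in ileum minus that in colon was -0.82 ± 0.46 (95% interval -1.79 to 0.15; edgeR adjusted p = 0.644). The adjusted p of the other 6 members lay between 0.664 and 0.858. The *Chrm2* strain effect was thus not shown to differ between the tissues.

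**Figure D2:**
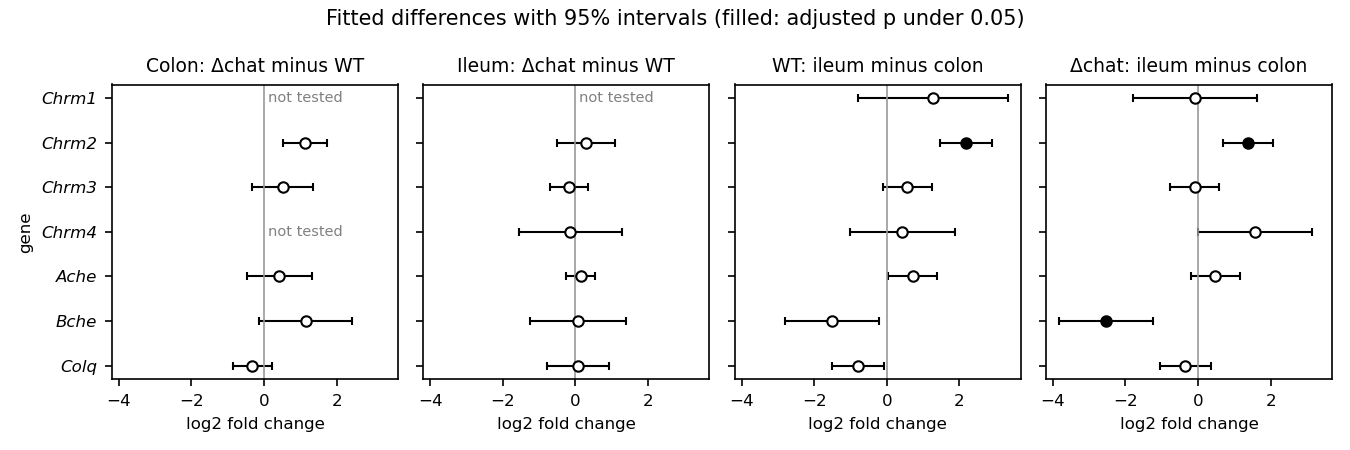
Fitted log2 fold changes of the 7 genes in 4 comparisons, with 95% intervals; filled points have an adjusted p under 0.05 and genes removed by the filter on low counts carry the words not tested. Filled points are *Chrm2* in both comparisons of ileum with colon (2.19 and 1.37) and *Bche* in that with Δchat (-2.53).

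The tissues differed more than the strains. *Chrm2* was higher in ileum than in colon with either strain, and the ranges of the tissues did not overlap within a strain. With WT the difference was 4.56-fold (log2 fold change 2.19 ± 0.34, edgeR adjusted p = 6.5e-04), and with Δchat 2.59-fold (1.37 ± 0.32, adjusted p = 0.0118). Taken mouse by mouse, ileum was above colon in 4 of 4 mice with WT and in 4 of 4 with Δchat, by log2 differences of 1.53 to 2.87 and of 0.66 to 1.89. Ordered by mean, ileum Δchat and ileum WT lay within each other's spread, colon Δchat came next and colon WT was lowest. Many genes differ between these tissues: 28.8% of all genes were called with WT and 13.3% with Δchat, and groups did not overlap for 34.9% and 15.5%. The strain and tissue comparisons share the same colon libraries and are not independent of each other.

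Markers of other cells moved between the tissues beside *Chrm2*, and not all in its direction. Of 12 endothelial genes, 10 were called higher in ileum with WT and 4 with Δchat, none lower, and their summed level was 5030 to 8900 CPM over the ileum libraries. Of 16 smooth muscle genes, 3 were called lower in ileum with WT and none with Δchat, at medians of -0.56 and -0.47. Of 7 pericyte genes, 1 was called lower with WT and 3 with Δchat. Of 12 macrophage genes, 11 were called higher in ileum with WT and 10 with Δchat (6 without colon Δchat replicate 3). Of 11 B cell genes, 11 were called lower in ileum with WT and 1 with Δchat. With the endothelial score as a covariate, the *Chrm2* difference was 1.09 with WT (adjusted p = 0.0209) and 0.62 with Δchat (adjusted p = 0.0651), and with the B cell score it was 1.42 and 0.78 (adjusted p = 0.0716 and 0.154). Both covariates were chosen after seeing the data. The endothelial score, the mean log2 CPM of the list, did not overlap between tissues with WT (at most 7.65 in colon, at least 7.82 in ileum). With Δchat it overlapped in part (7.23 to 7.77 in colon, 7.46 to 8.43 in ileum). The summed level of the list did not overlap with Δchat (3059 to 5143 CPM in colon, 5373 to 8900 CPM in ileum). The overlap thus depends on how the list is summarised. The B cell score also did not overlap with WT (at least 7.75 in colon, at most 6.84 in ileum). With Δchat it ran from 7.22 to 8.075 in colon and from 5.18 to 7.53 in ileum. Covariate and tissue are thus hard to separate for both scores, more so with WT. With the smooth muscle score the *Chrm2* differences were 2.28 and 1.45 (adjusted p = 0.00275 and 0.0252). Over all alternatives the adjusted p of *Chrm2* ran from 3.7e-09 to 0.0716 with WT and from 6.2e-04 to 0.154 with Δchat.

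*Bche* was lower in ileum than in colon, a difference that was called with Δchat alone. Its ileum libraries had 1.13, 0.899, 0.135 and 0.389 CPM with WT and 0.589, 0.490, 0.686 and 0.900 CPM with Δchat. The ileum values lay below all 4 colon values with Δchat, and overlapped the colon values with WT. The difference was 5.78-fold with Δchat (log2 fold change -2.53 ± 0.61, edgeR adjusted p = 0.0133) and 2.85-fold with WT (-1.51 ± 0.61, adjusted p = 0.0758). Without the epithelium-rich colon library the value with Δchat was -1.85 (adjusted p = 0.0414) and that with WT -1.49 (adjusted p = 0.0436). With an epithelial covariate they were -1.65 (adjusted p = 0.0283) and -1.67 (adjusted p = 0.00983), and with a smooth muscle covariate the value with Δchat was -2.25 (adjusted p = 0.057), the highest adjusted p over its alternatives. Ileum was below colon in 8 of 8 mice, at log2 differences from -3.43 to -0.08. Of 15 epithelial genes, *Krt20* and *Phgr1* were called lower in ileum with Δchat, at a list median of -2.14. Without colon Δchat replicate 3, none was called lower and 1 was called higher, at a median of -0.24. None was called with WT, where 1 had an unadjusted p under 0.05 and DESeq2 called 1, *Tspan8*.

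*Ache* and *Colq* had smaller differences between the tissues, and neither was called. *Ache* had 3.87, 4.49, 3.32 and 5.29 CPM in ileum WT and 5.30, 4.79, 4.29 and 4.67 CPM in ileum Δchat. Ileum was above colon in 8 of 8 mice, at a log2 fold change of 0.71 ± 0.32 with WT and 0.47 ± 0.31 with Δchat (edgeR adjusted p = 0.106 and 0.341). *Colq* had 1.43, 2.70, 4.31 and 2.39 CPM in ileum WT and 3.60, 2.51, 1.63 and 3.94 CPM in ileum Δchat. Its ileum was below colon in 6 of 8 mice, at -0.79 ± 0.33 with WT and -0.35 ± 0.33 with Δchat (adjusted p = 0.0837 and 0.506). Calls with WT hung on single libraries: without colon WT replicate 2 *Ache* was 0.99 and *Chrm3* 0.93 (adjusted p = 0.0424 and 0.0394), and without ileum WT replicate 3 *Colq* was -1.08 (adjusted p = 0.0279).

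None of the remaining receptors was called between the tissues, and their intervals were wide. *Chrm3* had 3.04, 3.202, 2.24 and 2.003 CPM in ileum WT and 2.42, 1.96, 2.66 and 2.36 CPM in ileum Δchat. Its log2 fold change against colon was 0.56 ± 0.32 with WT and -0.10 ± 0.31 with Δchat (edgeR adjusted p = 0.196 and 0.866). *Chrm4* had 0.774, 0.393, 0.314 and 0.779 CPM in ileum WT and 0.065, 0.981, 0.471 and 0.514 CPM in ileum Δchat, and *Chrm1* 0 to 0.618 and 0.131 to 0.763 CPM. For *Chrm4* the value with Δchat was 1.56 ± 0.73 (95% interval 0.00 to 3.13; unadjusted p = 0.0497, adjusted p = 0.173). For *Chrm1* the intervals ran from -0.79 to 3.33 with WT and from -1.79 to 1.63 with Δchat. Over the 7 members the median log2 fold change was 0.56 with WT, where that of all genes was -0.04, and -0.08 with Δchat, where it was -0.02. edgeR called 1 of 7 members with WT, where it called 28.8% of all genes, and 2 of 7 with Δchat, where it called 13.3%.

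The design also allows asking with which cells' genes the members varied from library to library. Within each tissue, the log2 CPM of each tested member was correlated with the mean log2 CPM of 18 cell-type lists over 8 libraries from 8 mice, 198 relations in all. By 2-sided exact permutation of the pairings, 27 relations had an unadjusted p under 0.05 and none passed Benjamini-Hochberg adjustment, the lowest adjusted p being 0.216. These counts include the 18 relations of *Chrm2* in colon, 3 of them with an unadjusted p under 0.05. In colon the strains formed separate clusters for *Chrm2*, so no value of those 18 is given or read, and the values below for it are centred on the strain means.

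No relation of a member with smooth muscle or glial genes passed the adjustment. For smooth muscle, r in colon ran from -0.10 (*Ache*) to 0.53 (*Bche*), leaving *Chrm2* aside. In ileum it ran from -0.44 (*Colq*) to 0.71 (*Chrm2*: Spearman's rho 0.52, exact permutation p = 0.0482 and 0.197, adjusted p = 0.353 and 0.678). Without the 2 libraries farthest from the median of the smooth muscle score, that r was 0.12, so the relation rested on them. Centred on strain in colon, r of *Chrm2* with smooth muscle was -0.43. For glia, r lay between -0.59 (*Ache*) and 0.30 (*Colq*) in colon and between -0.38 (*Bche*) and 0.20 (*Chrm4*) in ileum. Glial genes were sparse, with a summed level of 7.63 to 89.0 CPM over 10 genes, *Sox10* among them at 0 counts in 1 library.

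*Chrm2* went with vessel genes in ileum. With the 7 pericyte genes r was 0.95 and rho 0.90 (exact permutation p = 0.00109 and 0.00456, adjusted p = 0.216 and 0.301), and r stayed at 0.90 without the 2 farthest libraries and between 0.92 and 0.97 with each library left out. With the 12 endothelial genes r was 0.79 and rho 0.71 (adjusted p = 0.287 and 0.496), and 0.86 without the 2 farthest. Centred on strain, r with endothelium was 0.94 in ileum and 0.71 in colon, and r with pericytes 0.97 and 0.19. Pan-immune genes went the other way in ileum, at r = -0.61 (adjusted p = 0.473), as did plasma cell genes, at r = -0.77.

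*Bche* went with epithelial genes in both tissues, without passing the adjustment in either. In colon r was 0.86 and rho 0.62 (exact permutation p = 0.0135 and 0.115, adjusted p = 0.287 and 0.632). Without the 2 farthest libraries it was 0.52, and without colon Δchat replicate 3 alone it was 0.62. In ileum r was 0.72 and rho 0.71 (p = 0.0339 and 0.0576, adjusted p = 0.319 and 0.496), and 0.82 without the 2 farthest. The 4 genes of interstitial cells of Cajal gave an r of 0.92 in colon, and rho of 0.52, with 0.77 left without the 2 farthest, and 0.41 in ileum. In colon their summed level was 263 CPM in Δchat replicate 3 and 57 to 104 CPM in the other libraries.

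*Colq* had the highest r of the tested members with pan-immune and with B cell genes in both tissues. With the 10 pan-immune genes r was 0.77 in colon and 0.76 in ileum (adjusted p = 0.287 in each), and 0.66 and 0.47 without the 2 farthest libraries. With the 11 B cell genes it was 0.86 in colon and 0.71 in ileum (exact permutation p = 0.00580 and 0.0517, adjusted p = 0.228 and 0.353), with rho of 0.90 and 0.64 and r of 0.88 and 0.56 without the 2 farthest. With endothelium it was negative, -0.89 in colon and -0.73 in ileum (adjusted p = 0.224 and 0.340). Other lists were negative too. For *Colq*, r was -0.64 in colon and -0.87 in ileum with Cajal cell genes, and -0.67 and -0.74 with neuronal genes. With tuft cell genes in colon it was -0.85. *Ache* and *Chrm3* had no list with an unadjusted p under 0.05 in both tissues. Their highest values in colon were 0.74 for *Ache* with macrophage genes and 0.79 for *Chrm3* with neuronal genes (adjusted p = 0.287 each), where ileum gave -0.22 and 0.37. With granulocyte genes r of *Ache* was negative in both tissues, -0.72 in colon and -0.71 in ileum. No exact permutation test with that list had an adjusted p under 0.353.

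**Figure D3:**
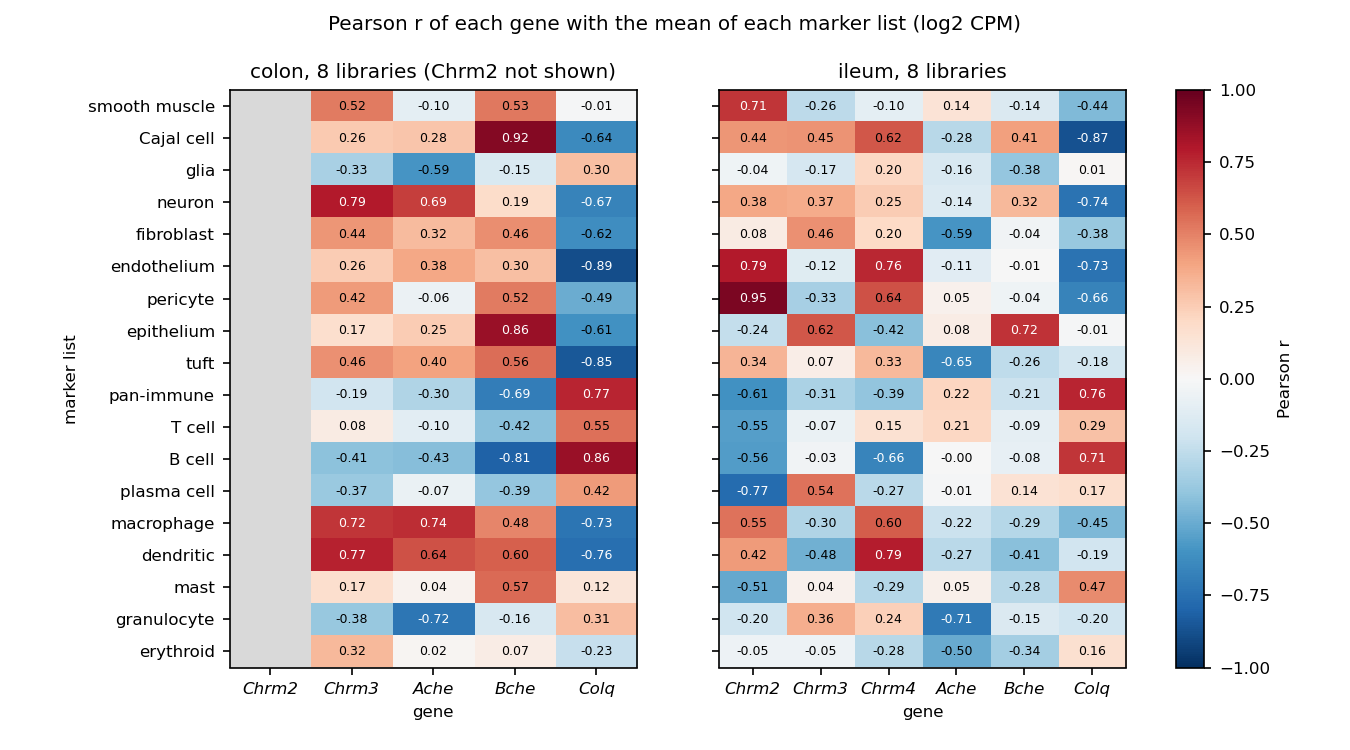
Pearson r of each tested gene with the mean log2 CPM of 18 cell-type lists, over the 8 libraries of colon (left) and of ileum (right); colours run from -1 to 1. *Chrm2* in colon is blank because the strains did not overlap, and none of the relations had an adjusted p under 0.05.

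**Figure D4:**
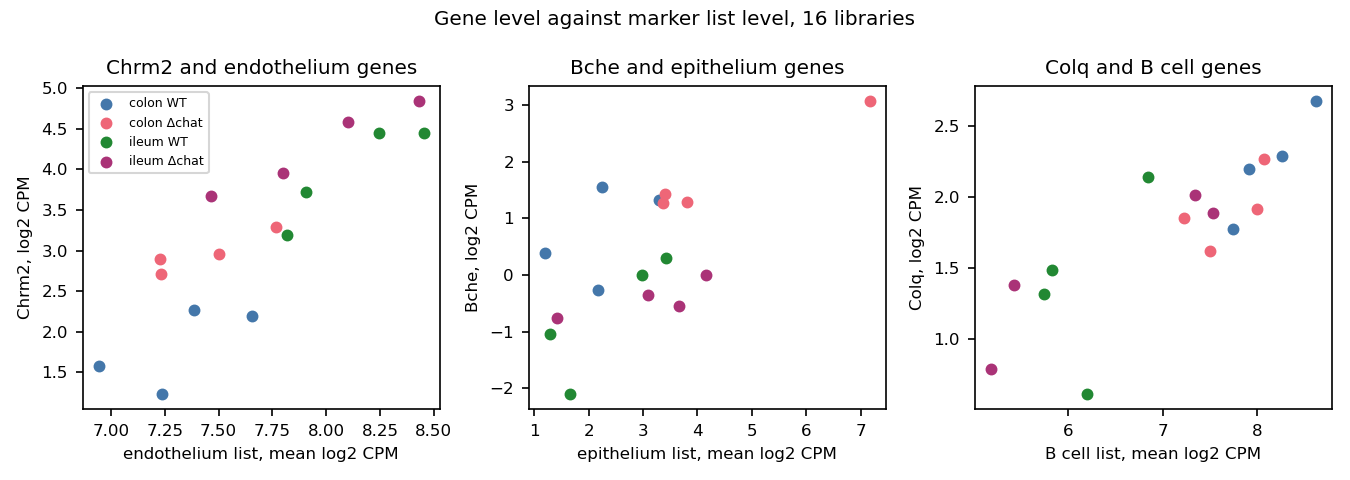
Log2 CPM of *Chrm2*, *Bche* and *Colq* against the mean log2 CPM of endothelial, epithelial and B cell genes, with 16 libraries coloured by group. The colon Δchat library with the highest epithelial value has the highest *Bche*. Along the endothelial and B cell axes, the ileum and colon libraries overlap with Δchat but not with WT.

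Among 13181 genes with a mean of at least 1 CPM, those whose group-centred log2 CPM was most like each member over the 16 libraries were named, as a description. For *Chrm2* they were *Abcc4* (r = 0.92), *Adgrl4*, *Pcdhb22*, *Rtl8b* and *Parvb* (0.89). For *Bche* they included *Slc39a5* (0.90), *Fgfbp1*, *Hacd1* and *Cdx1* (0.86), and for *Colq* *Cnot2* (0.90), *Ddx41*, *Rpl27*, *Tcp1* and *Cacfd1* (0.88). For *Ache* they were *Rom1* (0.93), *Tent5c*, *Tmem214*, *Fut1* and *Cpeb2* (0.82), and for *Chrm3* *Eid2* (0.84), *Amph*, *Tmem150a*, *Fasl* and *Rabac1* (0.77). Taken by tissue, r of *Chrm3* with *Fasl* was 0.91 in colon and 0.08 in ileum. The libraries of a group share tissue, strain and preparation, and a high r is common when so many genes are searched. Between the members themselves the group-centred r lay between -0.65 (*Chrm2* and *Colq*) and 0.47 (*Chrm3* and *Ache*).

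The rest of the cholinergic pathway was read from a list of 46 genes. Genes that make and load acetylcholine were nearly absent: *Chat*, the synthesising enzyme, was at 0 in 14 of 16 libraries and at most 3 counts, and *Slc18a3*, its vesicular transporter, was at 0 in 12. *Prima1*, the membrane anchor of acetylcholinesterase, had at most 14 counts. The 20 signalling genes behind the receptors ranged widely, from *Kcnj3*, a potassium channel subunit with at most 3 counts, to *Gnai2*, a Gi subunit (mean 582 CPM), *Rgs2*, a regulator of G protein signalling (427 CPM), and *Grk2*, a receptor kinase (342 CPM). Of 30 pathway genes tested in colon and 28 in ileum, edgeR called none by strain, with medians of 0.06 and -0.05. In colon 7 and in ileum 2 had an unadjusted p under 0.05, and DESeq2 called 2 in colon, *Plcb1*, a phospholipase C, and *Rgs4*, a regulator of G protein signalling, and none in ileum.

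Between the tissues, 8 of 30 pathway genes were called higher in ileum and 3 lower with WT, and 1 higher and 3 lower with Δchat. Of all genes 28.8% and 13.3% were called, so the count with Δchat was at the share of all genes. *Lynx1*, a modulator of nicotinic receptors, was lower with either strain (-1.07 ± 0.16 and -0.98 ± 0.16, edgeR adjusted p = 4.7e-04 and 0.00127). *Arrb2*, an arrestin, was higher with either (0.99 ± 0.17 and 0.86 ± 0.17, adjusted p = 0.00147 and 0.00518). *Gnao1*, a Go subunit, was lower with either (-0.83 ± 0.21 and -1.02 ± 0.21, adjusted p = 0.0114 and 0.00622). With WT, *Plcb4*, a phospholipase C, was higher by 0.90 ± 0.16 (adjusted p = 0.00184). With Δchat, *Gnai3*, a Gi subunit, differed by -0.20 ± 0.06 (adjusted p = 0.0480). The median over the list was 0.21 with WT and -0.12 with Δchat.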

How the data were processed

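The authors deposited 1 table of estimated counts for the genes of 16 RNA-seq libraries. Per the submitters' processing notes, cutadapt 5.0, Salmon 1.4.0 and GRCm39 were used. Values were rounded to whole counts, since 34.8 to 40.7% of a library's values were not whole. Of 35647 genes, 35105 had a symbol. Libraries were grouped by title, and none was left out or was a copy of another.

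In R 4.3.3, edgeR 4.0.16 (filterByExpr, TMM, robust quasi-likelihood fit) gave 2-sided tests, adjusted by Benjamini-Hochberg over all genes tested and called under 0.05. Strains were compared in fits of the 8 libraries of a tissue. Tissues and the interaction were tested in 1 fit of 16, from which all CPM come. That fit takes the 16 libraries as independent, so its tests do not use the pairing by mouse. Intervals are 95% intervals from the t distribution of the fit. The scripts were tested on simulated data. Log2 CPM for correlations has a prior count of 2. DESeq2 1.42.0, RLE scaling, other filters, covariates, the replicate block and libraries left out in turn were alternatives. The block pairs libraries by number, which joins different mice between strains and the libraries read as 1 mouse between tissues.

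The library protocol as given does not mark strand, so reads of overlapping genes cannot be told apart. In the GENCODE M21 annotation *Colq* overlaps *Gm49387* (0 to 19 counts) and *Chrm3* overlaps *Gm47406* (0 to 7 counts). Merged exon lengths come from that annotation, on GRCm38.

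The members and the gene lists were chosen with earlier results of these data known. All members were named in each comparison. From the pathway list, up to 4 called genes by smallest p were named, or else the 3 most abundant; from a cell-type list, the most abundant genes; for each member with a mean of at least 1 CPM, the 5 genes most like it, of which 1 is not reported here. Genes beyond this were chosen after their values were seen.

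A colon and an ileum library that share strain and number were read as 1 mouse, since the design gives 4 mice per group. Deviations from the group means of such pairs correlated at a median of 0.02 (-0.18 to 0.27). Colon and ileum libraries of the same strain but unlike number gave a median of -0.03 (-0.30 to 0.22). In 5 of 16 libraries the highest r among same-strain libraries of the other tissue was with their own number. These values do not settle the pairing, and the counts of mice rest on it.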

Additional observations from a re-analysis of the deposited data

Results flagged for a closer look

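In colon Δchat, the highest *Bche* library, replicate 3, had 8.35 CPM against 2.32 to 2.60 CPM in the other 3, a gap that was large for the range of the group by Dixon's criterion. The criterion marks about 1 in 20 groups by chance. It was applied to each of the 7 genes in each of the 4 groups, so a single mark is about what that rate gives. The same library had 4065 CPM summed over 15 epithelial genes and 89.0 CPM over 10 glial genes, mostly from *Erbb3*. The part of those cells in its *Bche* level was not tested.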

How the results depend on the processing

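The number of called genes was more sensitive than the members' fold changes. By strain in colon and in ileum, edgeR called 1 and 3 genes, DESeq2 313 and 374, the fit with a replicate block 0 and 0, 1 fit over 16 libraries 10 and 42, the endothelial covariate 2 and 115, the B cell covariate 4 and 48, and the epithelial covariate 2 and 0. RLE scaling, the filter at 1 CPM and the smooth muscle covariate each gave 0 in ileum, and no filter 5. For the interaction, 9 calls became 58 with DESeq2, 3 with the replicate block and 5 with the endothelial covariate. For the tissues with WT, 4380 became 1084 and 537 with the endothelial and B cell covariates. With each library left out, the counts ran from 0 to 3 (colon), 0 to 247 (ileum), 0 to 35 (interaction), 2606 to 4772 (tissues, WT) and 1315 to 2177 (tissues, Δchat). The replicate block changed no call of a member. The causes were not tested.

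Of the members' fold changes under alternatives, 675 kept direction and side of the threshold, 30 reversed, 4 lost and 6 gained a call. All that reversed were uncalled. With the epithelial covariate, *Bche* was -0.16 by strain in colon, -0.25 in ileum and 0.023 for the interaction, *Chrm4* 0.0088 in ileum, and *Chrm1* 0.19 between tissues with Δchat. With the endothelial covariate, *Chrm4* was 0.11 and *Colq* -0.14 by strain in ileum, *Chrm4* -0.46 and *Colq* 0.16 between tissues with WT, and *Colq* 0.22 with Δchat. With the B cell covariate, *Colq* was -0.057 by strain in ileum, *Chrm1* -0.30, *Chrm4* -0.40 and *Colq* 0.19 between tissues with WT, and *Colq* 0.26 with Δchat. With the smooth muscle covariate, *Chrm3* was 0.075 between tissues with Δchat. With a library left out, values by strain in ileum ran from -0.61 to 0.19 for *Chrm4*, -0.13 to 0.40 for *Colq* and -0.28 to 0.50 for *Bche*, and from -0.74 to 0.29 for *Chrm1* between tissues with Δchat. Correlations were followed under alternatives for the smooth muscle, glial and pan-immune lists only, where 286 values were kept and 110 moved. With another prior count or RLE scaling, kept means the same sign and side of the threshold. Otherwise it means within an SD of the values with each library left out. Those values were themselves among the ones judged, so some lie beyond it by construction. The vessel, epithelial and B cell lists were not covered. Low counts limit *Chrm1*, *Chrm4* and *Bche* in ileum.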
